A study of Bos taurus with 30 samples.

Results

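The microRNAs bta-miR-132, bta-miR-212 and bta-miR-138, where bta stands for Bos taurus, were followed in the testes of bull calves raised on a High or a Moderate plane of nutrition. Here they are called miR-132, miR-212 and miR-138. They were taken by name from the deposited table, where each has 1 row, so 3 of the 1030 bovine miRNAs listed are described. All animals were Holstein-Friesian bull calves, and testes were taken at 12 weeks of age from 15 calves of each diet, with 1 library of small RNA per calf. Feeding began at 2 weeks of age. High calves drank 10 L a day holding 1.5 kg of milk replacer and ate concentrate to appetite, with a target growth of 1.0 kg daily. Moderate calves drank 4 L holding 0.5 kg of the replacer and ate 0.5 kg of concentrate, with a target growth of 0.5 kg daily. The study asked whether early nutrition alters the miRNAs of the calf testis. Whole testis was sequenced, so fewer cells of a type and less RNA per cell cannot be told apart.

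miRNAs are short RNAs that pair through their seed, a stretch near the 5′ end, with mRNAs and lower their translation and stability. miR-132 and miR-212 are processed from 1 transcript and belong to 1 seed family. Their promoter responds to cAMP through the transcription factor CREB, best known in rodent neurons, where activity and neurotrophins raise miR-132. In mouse ovarian granulosa cells luteinizing hormone raises both, and in rat adrenal the pituitary hormone ACTH does so. Luteinizing hormone also drives steroid synthesis in Leydig cells of the testis through cAMP. miR-138 is best known from the brain, where in rat neurons it limits the size of dendritic spines, and its precursor is found in more tissues than its mature form.

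In RefSeq's gene table for ARS-UCD2.0, MIR132 and MIR212 are direct neighbours between the protein-coding genes OVCA2 and HIC1. miR-138 has 2 genes there, both of which yield the same mature name. MIR138-1 lies between ABHD5 and TOPAZ1, inside the span of an uncharacterised long non-coding RNA, and MIR138-2 lies between NUP93 and SLC12A3. Whole reads could be recovered from the deposited values, and every library held a whole number of miR-132 and of miR-212 reads. miR-138 had a remainder of 0.5 read in 13 of the 30 libraries, 6 High and 7 Moderate. How the authors' counting gave part of a read, and which gene the reads came from, was not stated in the labels.

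Depth was 6.0003 to 19.98 megareads (M reads) per library, with 4 High and 2 Moderate libraries above 12 M reads. Diet was taken from the diet characteristic of each label, which the ending of the sample code, H or L, matched in all 30 libraries. Titles gave the other diet for 18 of the 30 libraries, 9 in each group, so all statements on diet rest on that characteristic. The library Moderate replicate 5 stood apart, with 84.8% of its reads from miR-10b against 37.0% to 49.0% in the other libraries, and results are given with and without it. The tissue label was checked against miRNAs of gonadal somatic cells: miR-202 averaged 2335 ± 211 under High and 2315 ± 549 under Moderate (SD, n = 15 each). Levels are the deposited values in CPM, reads relative to the library total, after the authors' scaling by a trimmed mean of M values, here called TMM-scaled CPM.

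miR-132 was the most abundant of the 3. It averaged 29.5 ± 5.06 TMM-scaled CPM over the 30 libraries (SD) and lay above 78.3% of the 838 miRNAs seen in at least 1 library. miR-138 averaged 3.01 ± 1.05, above 62.1% of them, and miR-212 averaged 1.50 ± 0.593, above 56.9%. All 3 were above 0 in every library. miR-132 exceeded miR-138 in 30 of 30 libraries, by 4.93 to 20.25 times. miR-138 exceeded miR-212 in 28 of 30, with a median ratio of 2.01, and the 2 exceptions were High replicate 8 and Moderate replicate 15, so the lower pair overlapped in level. The order is one of reads, and unequal capture of different miRNAs by the library kit was not corrected.

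None of the 3 passed the test between diets, although the mean of each was higher in High testes. The test was limma on log2(level + 0.5) over 387 miRNAs, with p-values adjusted by the Benjamini-Hochberg method and a threshold of 0.05. Across all tested miRNAs 4.91% were called, 19 in number, and 2.33% were called higher under High. In limma 0 of the 3 were called and 2 of the 3, miR-212 and miR-138, had an unadjusted p under 0.05. That looser rule took in 21.2% of all tested miRNAs, and 11.6% on the higher side. On the recovered reads, edgeR and DESeq2 also called 0 of the 3, and in neither did any of them have an unadjusted p under 0.05; edgeR called 6.98% of 387 and DESeq2 13% (52) of the 399 to which it gave an adjusted p. An unadjusted p under 0.05 was reached by 23.5% in edgeR and 12.3% in DESeq2. Without Moderate replicate 5 limma called 11.3% of all tested, and again 0 of the 3.

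miR-132 ran from 25.5 through a median of 29.7 to 40.3 TMM-scaled CPM in High testes, and from 17.2 through 27.996 to 35.4 in Moderate testes. The ranges overlapped over most of their length. At the top, 3 High libraries lay above every Moderate one, with High replicate 14 the highest. At the bottom, 5 Moderate libraries lay below every High one, with Moderate replicate 7 the lowest. Of the 15 High libraries 11 exceeded the Moderate median. The mean was 31.2 ± 4.52 under High and 27.8 ± 5.14 under Moderate (SD, n = 15 each), and the log2 fold change was 0.17 with a standard error of 0.09 (95% confidence interval -0.01 to 0.36, adjusted p = 0.270 in limma). It was 0.19 without Moderate replicate 5 (adjusted p = 0.160 in limma).

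miR-212, the scarcer product of the same locus, had the largest log2 fold change of the 3 in this fit and the fewest reads. In High testes it ran from 0.344 through a median of 1.84 to 2.44 TMM-scaled CPM. In Moderate testes it ran from 0.346 through 1.26 to 2.65. The diets covered nearly the same range, and the difference lay in where most libraries sat: 13 of 15 High libraries exceeded the Moderate median and 2 of 15 Moderate libraries exceeded the High median. Means were 1.74 ± 0.525 under High and 1.27 ± 0.579 under Moderate. The log2 fold change was 0.36 with a standard error of 0.17 (95% confidence interval 0.02 to 0.69, adjusted p = 0.189 in limma).

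This value leaned on few reads. miR-212 was covered by 3 to 44 reads per High library and by 2 to 52 per Moderate library. High replicate 7, the lowest of its group, held 3 reads, while the next lowest High library stood at 1.03 TMM-scaled CPM. Without High replicate 7 the log2 fold change of miR-212 was 0.45 (adjusted p = 0.0514 in limma), and without Moderate replicate 8, also at 3 reads, it was 0.29 (adjusted p = 0.323 in limma). It was 0.34 without Moderate replicate 5, at 2 reads (adjusted p = 0.167 in limma). The added 0.5 is large beside such levels and understates the fold: the ratio of the plain means, High over Moderate, was 1.37 for miR-212, 1.28 for miR-138 and 1.12 for miR-132.

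miR-138 ran from 1.98 through a median of 3.38 to 5.07 TMM-scaled CPM in High testes, and from 1.31 through 2.61 to 5.32 in Moderate testes. The highest library of all was Moderate replicate 11, with the second highest Moderate library at 3.85. Of the Moderate libraries, 3 lay below every High library, and 10 of 15 High libraries exceeded the Moderate median. Means were 3.38 ± 0.974 under High and 2.65 ± 1.03 under Moderate. The log2 fold change was 0.33 with a standard error of 0.15 (95% confidence interval 0.03 to 0.62, adjusted p = 0.183 in limma). Without Moderate replicate 11 it was 0.39 (adjusted p = 0.0820 in limma), and without Moderate replicate 5 it was 0.32 (adjusted p = 0.154 in limma).

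**Figure D1:**
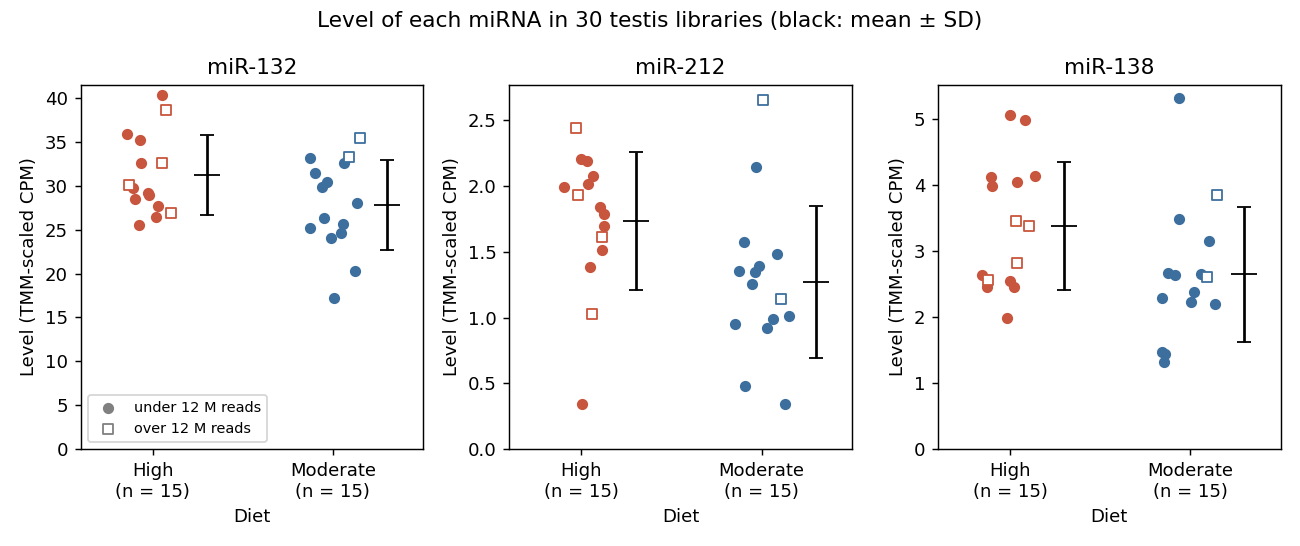
Levels of miR-132, miR-212 and miR-138 in TMM-scaled CPM (vertical axes, each from 0) in High and Moderate libraries, 1 point per calf, open squares for libraries above 12 M reads and black bars for mean ± SD. The High and Moderate points overlap for all 3, with High means of 31.2, 1.74 and 3.38 against Moderate means of 27.8, 1.27 and 2.65.

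The higher High means were seen among the libraries of lower depth. Among the 24 libraries under 12 M reads the log2 fold changes were 0.21 for miR-132, 0.42 for miR-212 and 0.40 for miR-138 (adjusted p in limma = 0.275, 0.233 and 0.233). In the 6 deeper libraries, 4 High against 2 Moderate, the differences of the mean log2 level were -0.11, -0.05 and -0.06 (exact permutation p = 0.533, 0.800 and 0.667, two-sided). The relation was therefore not seen within the deeper libraries, where the smallest two-sided p that 4 against 2 allows is 0.133. miR-132 ran there from 26.9 to 38.7 in High libraries, and stood at 33.3 and 35.4 in the Moderate pair. Whether the effects in shallow and deep libraries differ was not tested.

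With the diet given in the titles, the log2 fold changes were 0.02 for miR-132, -0.02 for miR-212 and 0.02 for miR-138 (adjusted p = 0.981 for each in limma). In the 12 libraries whose title and characteristic give the same diet they were 0.25, 0.42 and 0.43, and in the 18 that conflict, grouped by the characteristic, 0.12, 0.32 and 0.26, with no adjusted p under 0.05 in either part. Dividing by library totals alone gave 0.38, 0.48 and 0.48, while the median of all tested miRNAs moved to 0.21, against 0.03 with the deposited scaling. Relative to the median of each scaling, the values were 0.17, 0.27 and 0.27 with library totals, against 0.14, 0.33 and 0.29 as deposited.

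**Figure D2:**
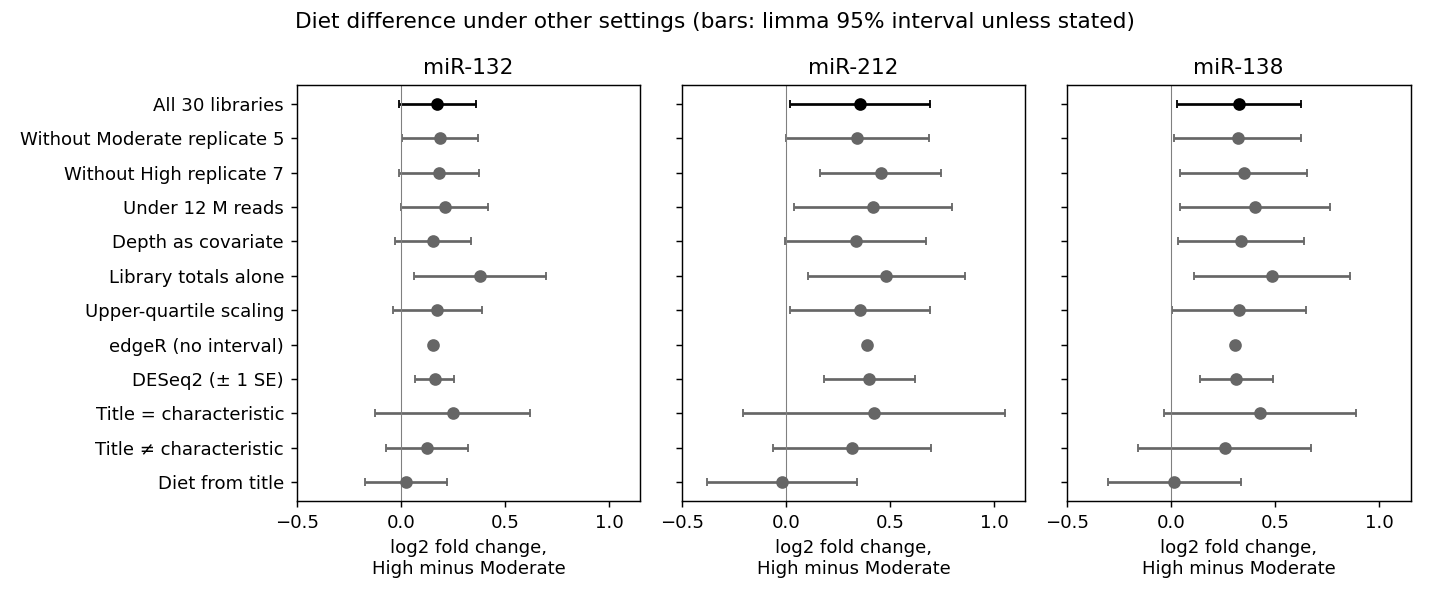
log2 fold changes of the 3 miRNAs, High minus Moderate (horizontal axis), on log2(level + 0.5) in limma and on the log2 scale of reads in edgeR and DESeq2, under the settings named at the left; bars are 95% confidence intervals from limma, or 1 standard error for DESeq2. All points lie above 0 except that of miR-212 with the diet of the titles (-0.02).

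The plain ratio of miR-132 to miR-212 does not depend on how a library was scaled, since both are divided by the same number. In High testes it ran from 12.8 through a median of 16.9 to 83.0. In Moderate testes it ran from 12.3 through a median of 22.5 to 58.7. Of the 15 High libraries 12 had a ratio under the Moderate median, and the highest ratio of all was that of High replicate 7, with 249 reads of miR-132 and 3 of miR-212. The next highest High library, High replicate 3, stood at 26.2.

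The mean log2 ratio, with 0.5 added to both levels, was 3.86 ± 0.40 under High and 4.05 ± 0.42 under Moderate (SD, n = 15 each). Unlike the plain ratio, these means depend on the scaling through the added 0.5. The difference was -0.18 with a standard error of 0.15 (permutation p = 0.233, two-sided). Without High replicate 7 the difference was -0.27 with a standard error of 0.12 (permutation p = 0.0387), so that 1 library decided on which side of 0.05 it fell. When all 4 libraries with fewer than 5 reads of miR-212 were left out, a choice made after seeing the data, it was -0.13 with a standard error of 0.11 (14 High against 12 Moderate, permutation p = 0.235). It was -0.15 without Moderate replicate 5 (permutation p = 0.322). Among libraries under 12 M reads it was -0.21 (permutation p = 0.264), and in the 4 High and 2 Moderate deeper ones -0.06 (exact permutation p = 1).

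Counted as a share, miR-212 made up 303 of the 5773 reads of the pair in High libraries and 195 of 4178 in Moderate libraries. These shares are 5.25% (exact Clopper-Pearson 95% interval 4.69 to 5.86) and 4.67% (4.05 to 5.35). Single libraries ran from 1.19% through a median of 5.60% to 7.22% under High and from 1.68% through 4.26% to 7.50% under Moderate. The variance of these shares was 1.19 times that of counting alone in High libraries and 1.86 times in Moderate ones. The reads have no molecular identifiers, so these intervals speak of counting error alone.

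**Figure D3:**
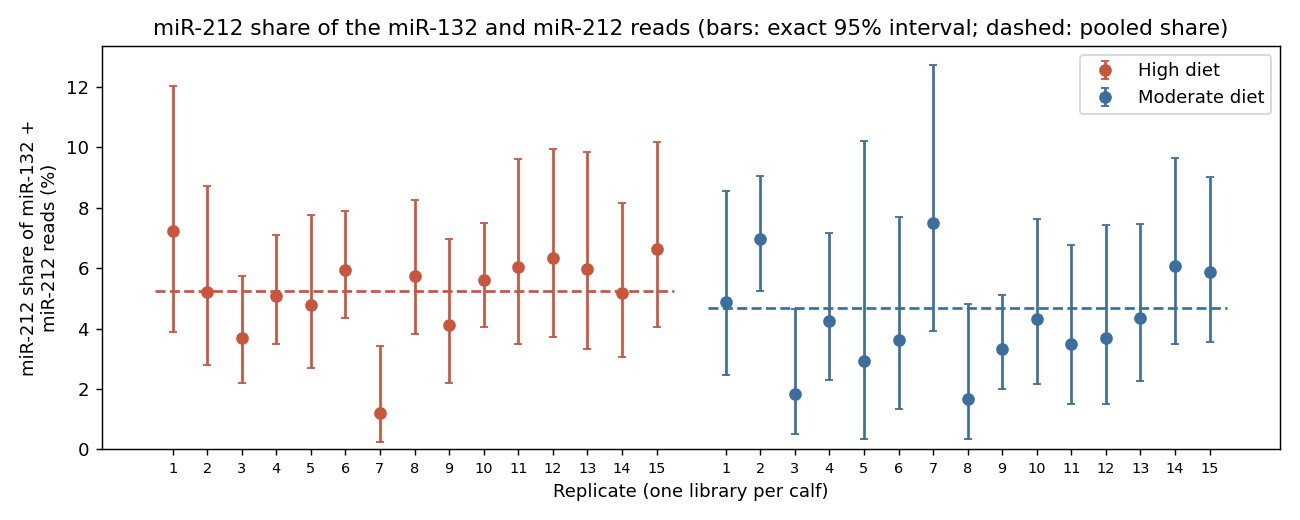
miR-212 reads as a percentage of miR-132 plus miR-212 reads (vertical axis) in each library, ordered by replicate number, High at the left; bars are exact 95% binomial intervals and dashed lines the pooled shares of 5.25% and 4.67%. High replicate 7 is the lowest library at 1.19%, and most intervals overlap both pooled shares.

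The precision of each level was set by its reads. At the median number of reads, counting alone gives an error of 5.78% for miR-132 in High libraries and 6.73% in Moderate ones. It gives 24.3% in High and 30.2% in Moderate libraries for miR-212, and 16.9% in High and 22.4% in Moderate libraries for miR-138. The coefficient of variation between calves was 14.5% in High and 18.5% in Moderate testes for miR-132, and 30.2% in High and 45.6% in Moderate testes for miR-212. For miR-138 it was 28.8% in High and 38.7% in Moderate testes. Reads of miR-132 varied with 7.18 times the variance of counting in High libraries and 9.71 times in Moderate ones. The factor was 1.80 in High and 2.95 in Moderate libraries for miR-212, and 2.79 in High and 3.54 in Moderate libraries for miR-138. Most of the spread of miR-132 exceeded counting error, while counting error was a large share of the spread of miR-212.

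miR-132 and miR-212 varied together from calf to calf. After the mean of each diet was subtracted, Pearson's r over the 30 libraries was 0.461 (permutation p = 0.0111, 0.0333 adjusted over the 3 pairs) and Spearman's rho was 0.506 (permutation p = 0.00471, 0.0141 adjusted). Without Moderate replicate 7 and High replicate 14, the 2 libraries farthest from the median of miR-132, r was 0.581 (permutation p = 0.00112), and without Moderate replicate 5 it was 0.483 (permutation p = 0.00847). Within High libraries r was 0.416 (permutation p = 0.118, n = 15) and rho 0.557 (permutation p = 0.0327). Within Moderate libraries r was 0.497 (permutation p = 0.0598, n = 15) and rho 0.457 (permutation p = 0.0880). It was 0.343 among the 24 libraries under 12 M reads (permutation p = 0.0995) and 0.802 among the 6 deeper ones (exact permutation p = 0.0444), so within these smaller sets no adjusted p for r was under 0.05. Both miRNAs share the scaling of their library.

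Over all 30 libraries miR-138 shared little of this. Its r with miR-132 was 0.016 (permutation p = 0.933) and rho 0.049 (permutation p = 0.797), n = 30. Its r with miR-212 was 0.177 (permutation p = 0.351) and rho 0.145 (permutation p = 0.442), and without High replicate 7 and Moderate replicate 2, the libraries farthest from the median of miR-212, r was -0.025 (permutation p = 0.899). Other sets gave higher values. Without the 2 libraries farthest from the median of miR-132, its r with miR-138 was 0.219 (permutation p = 0.262). Within Moderate libraries rho of miR-138 was 0.368 with miR-132 and 0.368 with miR-212 (permutation p = 0.176 and 0.178). Within High libraries these were -0.150 and 0.007 (permutation p = 0.591 and 0.985). In the 6 deeper libraries r with miR-212 was 0.455 (exact permutation p = 0.333). Neither pair passed after adjustment. Whether these correlations differ from that of miR-132 with miR-212 was not tested.

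**Figure D4:**
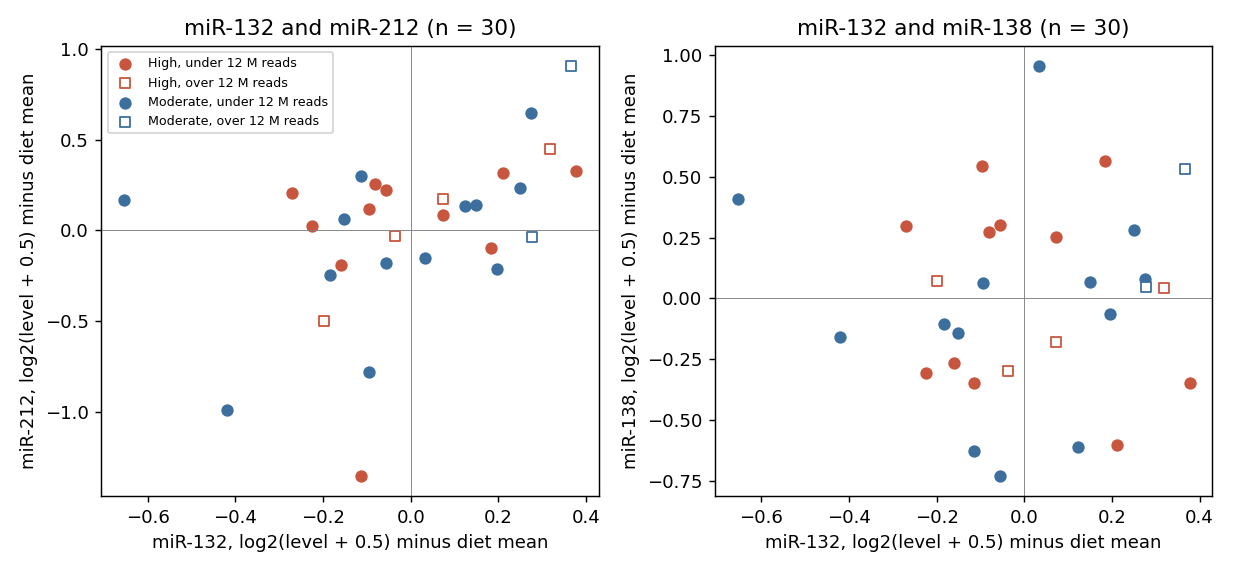
Each library's log2(level + 0.5) of miR-132 (horizontal) against miR-212 (left panel) and miR-138 (right panel), each minus its diet mean, for 15 High and 15 Moderate libraries; open squares mark libraries above 12 M reads. Points rise together on the left (r = 0.461) and not on the right (r = 0.016).

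Among the 386 other tested miRNAs, likeness was ranked by Spearman's rho over the 30 libraries with diet means subtracted, given as a description. For miR-212 the first place went to miR-132 (rho 0.506), followed by miR-30a-5p (0.459), miR-2320-5p (0.451), miR-11982 (0.415) and let-7g (0.384). For miR-132 the first was miR-181b (0.518), with miR-212 second (0.506), then miR-342 (0.479), miR-1306 (0.467) and miR-10182-3p (0.426). Without Moderate replicate 5, miR-212 took first place for miR-132 (0.533) and miR-132 first place for miR-212. For miR-138 the closest were miR-2285as (0.535), miR-6520 (0.450), miR-2904 (0.436), miR-449a (0.426) and miR-184 (0.418). In the order for miR-138, miR-212 came at place 68, and miR-132 came after it.

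Other miRNAs described as responding to ACTH, cAMP or gonadotropins in rodent steroidogenic cells were read from the same fit. Of 15 tested rows from 12 such miRNAs, 0 were called in limma. There 3 had an unadjusted p under 0.05, a rule that took in 21.2% of all tested miRNAs. Of the 15 rows, 5 had a positive log2 fold change. The median was -0.03, beside 0.03 over all tested miRNAs. The direction in which each responds was not part of the list. The count of positive values and the median therefore do not measure a hormone response. edgeR called 0 of the 15 and DESeq2 called 2, miR-377 and miR-27a-3p. DESeq2 called 13% of all miRNAs to which it gave an adjusted p, so these calls do not set the list apart. miR-27a-3p, which in mouse cells restrains the formation of fat cells, stood at 14674 ± 1572 TMM-scaled CPM in High testes and 12985 ± 1723 in Moderate ones (a log2 difference of 0.18, adjusted p = 0.0820 in limma and 0.0399 in DESeq2). miR-377, which lies in the imprinted DLK1-DIO3 region, stood at 1.56 ± 0.446 in High and 2.10 ± 0.549 in Moderate testes (-0.34, adjusted p = 0.0820 in limma and 0.0449 in DESeq2). miR-377 passed in limma without Moderate replicate 5 (-0.37, adjusted p = 0.0401). miR-125a had a log2 fold change of -0.12 (adjusted p = 0.211 in limma). miR-182 and miR-183, which ACTH raises in rat adrenal as it does miR-132, stood at -0.03 and -0.01.

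Of 11 tested rows of miRNAs linked to steroid synthesis or to steroidogenic cells, 1 rose, 1 fell and 9 did not pass in limma, and edgeR and DESeq2 called 2 each. The median log2 fold change was 0.05, beside 0.03 over all tested. miR-34a, which p53 induces, rose to 26.7 ± 9.48 in High testes, against 18.3 ± 3.13 in Moderate testes (log2 fold change 0.49, adjusted p = 0.0260 in limma). miR-320a fell to 649 ± 68.6 in High testes, against 752 ± 80.6 in Moderate testes (-0.21, adjusted p = 0.0409 in limma). With each of the 30 libraries left out in turn, miR-34a passed in 29 fits and miR-320a in 16. Without High replicate 5 neither passed, nor did any other miRNA in limma, where 76 had an unadjusted p under 0.05. Next by p came miR-24, with a log2 fold change of 0.21 (adjusted p = 0.415 in limma). Its other row, miR-24-3p, stood at 0.05 (adjusted p = 0.490 in limma). The smooth muscle miRNA miR-145 had a log2 fold change of -0.15 (adjusted p = 0.529 in limma).

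**Figure D5:**
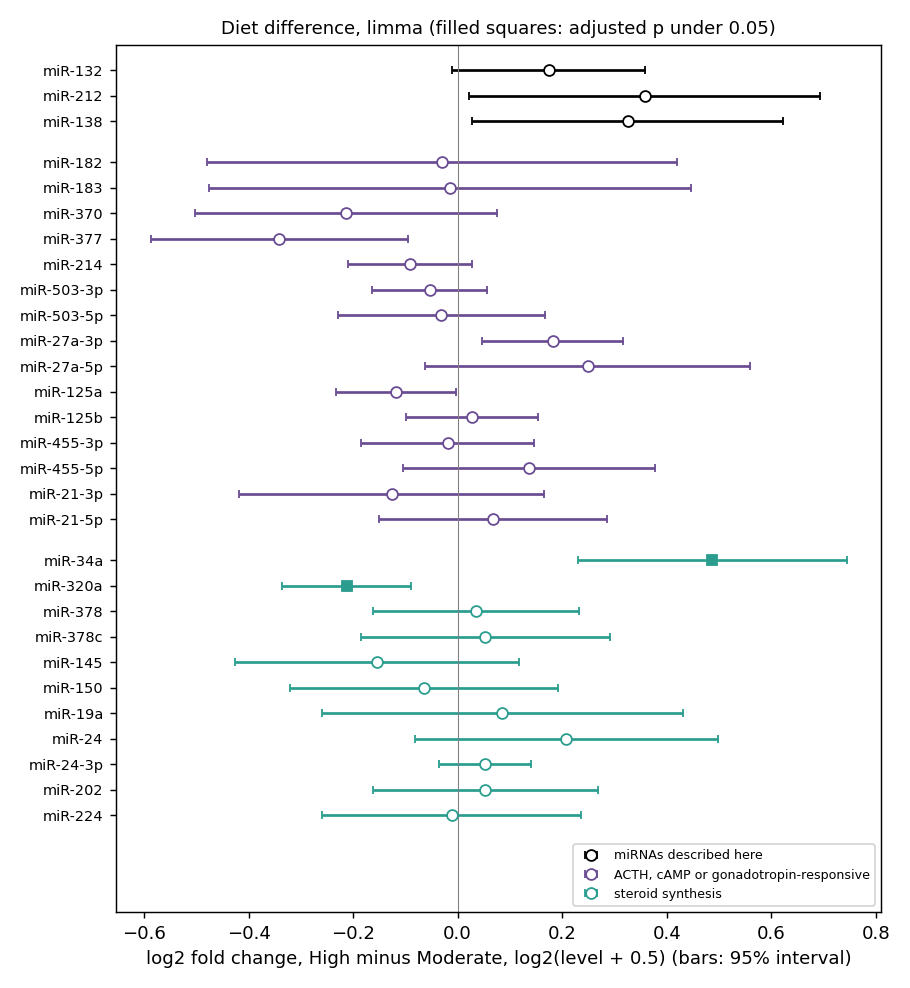
log2 fold changes on log2(level + 0.5), High minus Moderate, with 95% confidence intervals from limma (horizontal axis) for miR-132, miR-212 and miR-138, the 15 tested rows of the hormone-responsive list and the 11 of the steroid synthesis list. Filled squares mark the 2 rows past an adjusted p of 0.05, miR-34a (0.49) and miR-320a (-0.21), and open circles the rest.

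Neural miRNAs were examined because miR-132 and miR-138 are abundant in neurons. Of 7 tested rows 0 were called in limma, in edgeR and in DESeq2, 0 had an unadjusted p under 0.05 in limma, and the median log2 fold change was 0.04. The summed level of the list ran from 154 through 167 to 196 TMM-scaled CPM under High and from 127.6 through 162 to 201 under Moderate. The defining neuronal miRNA miR-124a averaged 3.37 ± 1.13 under High and 3.73 ± 1.23 under Moderate, and miR-124b holds the same values. miR-129 and miR-129-5p likewise hold the same values as each other. The tested rows, their median and the summed level therefore repeat both sets of values. Among the other marker lists, limma called 0 of 3 red blood cell, 7 leukocyte, 3 striated muscle, 2 smooth muscle, 2 endothelial, 4 epithelial and 2 gonadal somatic rows, with 0, 1, 1, 0, 0, 1 and 0 at an unadjusted p under 0.05. edgeR and DESeq2 each called 1 of these, the striated muscle miRNA miR-499. Of the striated muscle list miR-1 and miR-206 were at 0 in every library. Without Moderate replicate 5 miR-499 passed in limma (log2 fold change 0.41, adjusted p = 0.0128), while miR-133a and miR-133b stood at -0.05 and 0.04. The leukocyte miRNA miR-146b also passed in that fit (1.09, adjusted p = 0.0360), which called 11.3% of all tested miRNAs. There miR-146a stood at 0.14, and miR-142-3p, miR-142-5p, miR-150, miR-155 and miR-223 at -0.11, -0.05, -0.06, -0.13 and -0.42. Of 3 germ cell rows, miR-34b and miR-34c rose (0.73 and 0.96, adjusted p = 0.0313 and 0.0260 in limma), where 2.33% of all tested were called higher. miR-449a, the remaining row, did not pass and showed little change (0.02, limma adjusted p = 0.949). It averaged 11.7 ± 3.30 TMM-scaled CPM under High and 11.9 ± 4.94 under Moderate, so the list did not rise as a whole. In edgeR miR-34c passed (adjusted p = 0.0303) and miR-34b did not (adjusted p = 0.0591). With each of the 30 libraries left out in turn, miR-34c passed in 29 limma fits and miR-34b in 24. Their summed level with miR-449a ran from 89.3 to 265 under High and from 21.9 to 185 under Moderate. The part of any of these cell types in the levels of miR-132, miR-212 and miR-138 was not tested.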

How the data were processed

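Per the labels' protocols, total testis RNA was extracted with a Qiagen RNeasy Plus Universal kit and sequenced after the Illumina TruSeq small RNA preparation. edgeR 3.5, R 3.4, cutadapt 2.6 and FastQC 0.11.8 are named in the submitters' processing notes. For the aligner, the miRNA reference and the build, no source used here gives a name.

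The deposited values are a signal, CPM of a TMM-scaled library size, as worked out from the values. Dividing by the value of 1 read gave whole reads for 95.3% of 18379 values above 0 (tolerance 0.02 read). A count of 3 reads, the limit that 0 reads allow, is worth 0.138 to 1.43 units. All 30 columns matched the sample code of 1 label.

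limma 3.58.1 (R 4.3.3, mean-variance trend, diet as the only term) was run on log2(value + 0.5) for miRNAs at 1 or more in at least 15 libraries. edgeR 4.0.16 (quasi-likelihood) and DESeq2 1.42.0 were alternatives on recovered reads, rounded to whole numbers. edgeR called 27 of 387 and DESeq2 52 of the 399 to which it gave an adjusted p. Ratios and correlations used 100000 permutations, two-sided, or exact enumeration in small sets. The main limma fit and the edgeR and DESeq2 fits to all libraries were tested on simulated data. Other settings changed scaling, filter, pseudocount, depth, libraries and the source of diet. Each library is 1 calf, and no 2 agreed within sampling noise (lowest chi-square per degree of freedom 60.1 over 435 pairs).

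Named miRNAs are the 3 members, the 5 most like each, and up to 3 per list with the smallest p. Added to these, after their values were seen, were miR-182, miR-183, miR-24-3p, miR-145 and, in the marker lists, those shown. Members and lists were chosen with earlier results of these data known.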

Additional observations from a re-analysis of the deposited data

How the results depend on the processing

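No paired analysis was possible because the replicate numbers only follow accession order. The log2 fold changes of miR-132, miR-212 and miR-138 stayed positive and short of the threshold under each of 45 settings, except that miR-212 stood at -0.021 with the diet of the titles. Outside these settings, the 6 deeper libraries alone gave -0.11, -0.05 and -0.06. With each of the 30 libraries left out in turn they ran from 0.13 to 0.20, from 0.29 to 0.45 and from 0.27 to 0.39. The log2 ratio of miR-132 to miR-212 ran from -0.27 to -0.13 in those fits, passing only without High replicate 7 (-0.27, permutation p = 0.0387), and stood at 0.046 with the diet of the titles. It was -0.28 with 0.1 added to levels, -0.03 with 2 added to levels, and -0.28 with 0.5 added to recovered reads.

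The number of miRNAs called, 19 in limma, was 52 in DESeq2, and 0 with library totals alone, with no filter on low values, with the diet of the titles, and in the libraries with 1 diet in both labels or with conflicting ones. It was 3 in libraries under 12 M reads, and 0 to 44 with 1 library left out, the extremes being without High replicate 5 and without Moderate replicate 5. In settings chosen after seeing the data and leaving out Moderate replicate 5, it was 31 with library totals and 49 in edgeR. At 0 calls, unadjusted p-values under 0.05 numbered 61, 104, 11, 43 and 58 in limma, in the order given.

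The r of miR-132 with miR-212 had an adjusted p above 0.05 in High libraries (0.416), Moderate libraries (0.497), libraries under 12 M reads (0.343) and the deeper ones (0.802), sets with fewer libraries. The r of miR-132 with miR-138 was -0.157 in High libraries, -0.081 under 12 M reads and 0.219 without its 2 farthest libraries. That of miR-212 with miR-138 was -0.025 without its 2 farthest libraries and 0.455 in the deeper ones. The cause of these shifts was not tested. Read numbers limit miR-212 most, with 4 libraries under 5 reads.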
